A study of Homo sapiens with 16 samples.

Results

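The genes for cyclin-dependent kinase (CDK) inhibitors were followed in MUTZ-3, an acute myeloid leukemia cell line with inv(3) that expresses *EVI1* (*MECOM*) from the rearranged allele. The group was set by gene name and holds 8 of the 60623 genes counted: *CDKN1A*, *CDKN1B*, *CDKN1C*, *CDKN2A*, *CDKN2B*, *CDKN2C*, *CDKN2D* and *CDKN3*. RNA-Seq was available for 16 libraries, with 1 library per condition. The PARP inhibitor (PARPi) experiment comprised 10 of them: untreated cells at 0 h, and the DMSO vehicle, olaparib at 10 µM and talazoparib at 1 µM, each after 12, 24 and 48 h. The remaining 6 were from a knockdown, in cells carrying a lentiviral pLKO.1 vector with a non-targeting control (NTC), shEVI1-2531 or shEVI1-2532, harvested on day 3 or day 6 under puromycin. All cells were of this 1 line and grew in medium with serum, conditioned medium of 5637 cells and GM-CSF. Library totals were 55999673 to 72681943 counts in the former and 95523038 to 120716213 in the latter.

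Progress through the cell cycle is driven by CDKs, which are active only when bound to a cyclin, and CDK inhibitor proteins restrain these complexes. The Cip/Kip family, encoded by *CDKN1A* (p21), *CDKN1B* (p27) and *CDKN1C* (p57), binds cyclin-CDK complexes of several kinds, whereas the INK4 family, encoded by *CDKN2A* (p16), *CDKN2B* (p15), *CDKN2C* (p18) and *CDKN2D* (p19), binds CDK4 and CDK6. *CDKN2A* also encodes ARF, which restrains MDM2 and is read in another frame. *CDKN3* is grouped here by name, but its product is a phosphatase that removes an activating phosphate from CDK2 and is itself made mainly in dividing cells. *CDKN1A* is a well-known direct target of p53, and p27 is controlled largely through degradation of the protein, so that RNA levels do not report the amounts of the proteins.

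Promoter sequences are shown for 3 of these genes, because *CDKN1A* and *CDKN3* moved in opposite directions and *CDKN2B* was near 0. They are RefSeq windows of GRCh38.p14 that run from 250 bases before to 50 bases after an annotated start, read 5′ to 3′ on the strand of the gene. Such windows were found for 7 of the 8 genes, 10 windows in all, and none was at hand for *CDKN1C*. Capitals mark the GC box GGGCGG in *CDKN1A* (chr6:36678464-36678763, plus strand) and *CDKN2B* (chr9:22009256-22009555, minus strand). In *CDKN3* (chr14:54396757-54397056, plus strand) they mark CCAAT and TTTGAA, the letters of a cell cycle genes homology region (CHR).
CDKN1A: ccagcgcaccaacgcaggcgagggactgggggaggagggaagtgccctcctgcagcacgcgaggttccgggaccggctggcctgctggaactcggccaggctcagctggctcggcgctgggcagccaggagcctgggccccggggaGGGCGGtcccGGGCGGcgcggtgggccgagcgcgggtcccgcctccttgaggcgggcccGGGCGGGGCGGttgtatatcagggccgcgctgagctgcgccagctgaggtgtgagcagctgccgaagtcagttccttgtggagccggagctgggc
CDKN3: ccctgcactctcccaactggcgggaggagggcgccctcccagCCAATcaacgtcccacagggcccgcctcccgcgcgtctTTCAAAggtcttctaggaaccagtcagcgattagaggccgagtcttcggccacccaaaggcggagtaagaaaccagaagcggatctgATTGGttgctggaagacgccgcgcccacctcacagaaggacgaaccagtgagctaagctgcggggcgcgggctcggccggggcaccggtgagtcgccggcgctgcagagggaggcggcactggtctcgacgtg
CDKN2B: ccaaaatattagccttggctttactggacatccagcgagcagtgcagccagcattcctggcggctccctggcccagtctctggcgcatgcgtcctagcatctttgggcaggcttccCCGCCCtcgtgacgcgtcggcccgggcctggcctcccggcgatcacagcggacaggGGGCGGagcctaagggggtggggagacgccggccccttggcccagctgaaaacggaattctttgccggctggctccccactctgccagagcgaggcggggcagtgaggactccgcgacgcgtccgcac

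Motifs were searched on both strands, and a match on the other strand is shown in capitals as its reverse complement. The *CDKN1A* window held 4 GC boxes, 2 of which overlap by a base, and the *CDKN2B* window 2, and at least 1 was present in 45% of 35116 windows of this length. The *CDKN3* window held 2 CCAAT boxes and 1 TTTGAA, which occurred in 34.6% and 15.2% of all windows. The variant TTTAAA was found in the *CDKN1B* window alone among these genes, and in 12.2% of all windows. TATAAA, present in 11.5% of windows, and the p53 site, a pair of decamers at most 13 bases apart and present in 0.0285% of windows, were found in none of the 10. The *CDKN2B* window had 25 CpG dinucleotides and that of *CDKN1A* 29, against a median of 14 over all windows. These matches describe letters in a short window only. Sites further from the start were not searched, so the lack of a p53 site here does not bear on p53 control of these genes.

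Levels of different genes were compared in CPM, the counts scaled to the library total, per kb of annotated exon. *CDKN1A* stood highest in both experiments, with medians of 181 (35.3 to 235) over the 10 PARPi libraries and 146 (63.2 to 175) over the 6 knockdown libraries. *CDKN2C* came next at 24.0 and 21.8. *CDKN3*, with a median of 12.6, and *CDKN1B*, with 10.7, were neighbours in the PARPi libraries with overlapping ranges, and their order was the opposite in the knockdown libraries at 8.66 and 9.54. *CDKN2D* followed at 6.43 and 6.82 and *CDKN2A* at 3.54 and 4.58, again with overlapping ranges, and *CDKN1C* was low at 0.869 and 1.01. In this measure *CDKN1A* supplied 31.9 to 54.4% of the summed level of all 8 genes in DMSO and 75.8 to 81.2% in the 6 inhibitor libraries. Its share was 48.8 to 52.98% with NTC and 69.8 to 82.8% in the 4 shEVI1 libraries.

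**Figure D1:**
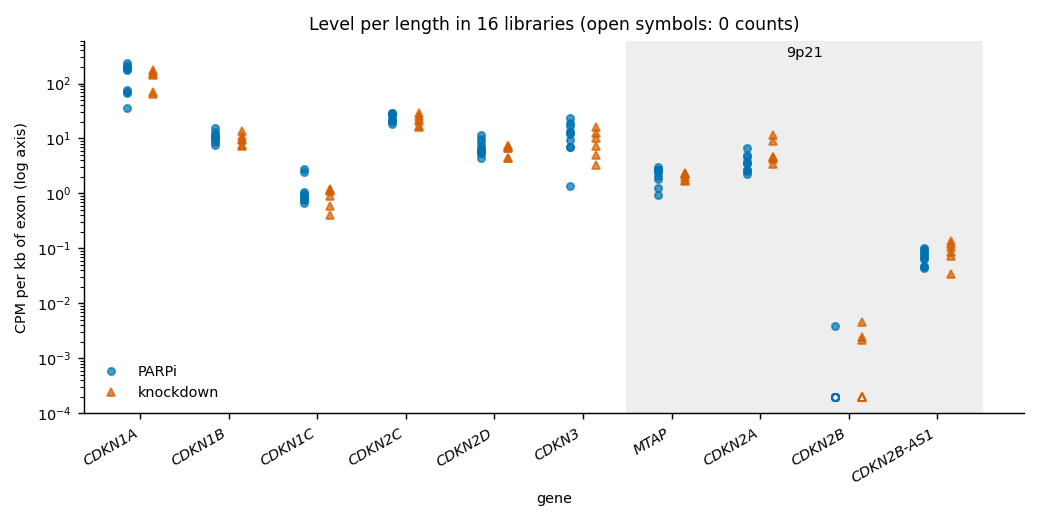
Level of 7 CDK inhibitor genes, *CDKN2B*, and the *CDKN2A* neighbours *MTAP* and *CDKN2B-AS1*, in CPM per kb of exon on a log axis, with 1 point per library (circles, 10 PARPi libraries; triangles, 6 knockdown libraries). *CDKN1A*, at 35.3 or more, lies above every other gene plotted in all 16 libraries, and *CDKN2B*, at 0 counts in 12 of 16 libraries (open symbols, drawn at the bottom), lies far below *CDKN2A* and *MTAP* of the same region.

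*CDKN2B*, the INK4 gene next to *CDKN2A* (chr9:22002903-22009305, minus strand), was close to absent from these libraries. It had 5 counts over the 16 libraries, at most 2 in a library and 0 in 12, so it did not pass the filter and was not tested. A count of 0 allows up to 0.0536 CPM in the shallowest PARPi library. *CDKN2A*, on the same strand (chr9:21967753-21995301), had 9.93 to 49.4 CPM, and *MTAP*, the metabolic gene on its other side, 13.8 to 44.3 CPM. *DMRTA1*, the next gene on the far side of *CDKN2B*, had 0 counts in all 16 libraries. The antisense RNA *CDKN2B-AS1*, which overlaps both INK4 genes on the opposite strand, had only 21 to 125 counts. Whether counting used strand is not stated for these files, and reads of such overlapping pairs cannot be told apart. The same holds for *CDKN1A* (chr6:36676460-36687339, plus strand), which *DINOL* overlaps with at most 18 counts.

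The first comparison asked what PARP inhibition did to these genes. *CDKN1A* was higher in all 6 inhibitor libraries than in any DMSO library. It had 218 CPM in untreated cells and 229, 202 and 108 CPM in DMSO at 12, 24 and 48 h. With olaparib it had 579, 566 and 537 CPM, and with talazoparib 717, 623 and 638 CPM at the same hours. The inhibitor levels thus lay in a narrow band from the first time point on, while DMSO at 48 h over DMSO at 12 h was -1.09 (log2 ratio, 95% counting interval -1.13 to -1.05). The ratio to DMSO of the same hour was 2.53, 2.80 and 4.99 with olaparib and 3.13, 3.08 and 5.92 with talazoparib. Doses of the inhibitors differ, so their values are set side by side and not compared by a test. Bulk RNA does not tell a change in RNA per cell from a change in the share of cells that carry it.

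The mean effect of both inhibitors was fitted by edgeR's quasi-likelihood method with the hour as a factor. *CDKN1A* was higher by 1.87 ± 0.23 (log2, SE; Benjamini-Hochberg adjusted p = 0.0131), and it was the 1 gene called among the 7 that passed the filter on low counts. Across all 17218 genes tested, 3.16% were called higher and 1.01% lower. The median effect of the 7 genes was 0.44, beside -0.01 over all genes. There were no replicates, so the spread in this fit is that between time points and inhibitors and not between cultures. The *CDKN1A* call was lost without DMSO, olaparib or talazoparib at 24 h (adjusted p = 0.112, 0.0802 and 0.0701), without olaparib at 48 h (adjusted p = 0.0541) and without the 24 h libraries altogether (adjusted p = 0.340). It was kept in the other 12 of 17 alternatives, the one without all 48 h libraries among them (1.53, adjusted p = 3.45e-05), and the effect lay between 1.52 and 2.08 in all 17.

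**Figure D2:**
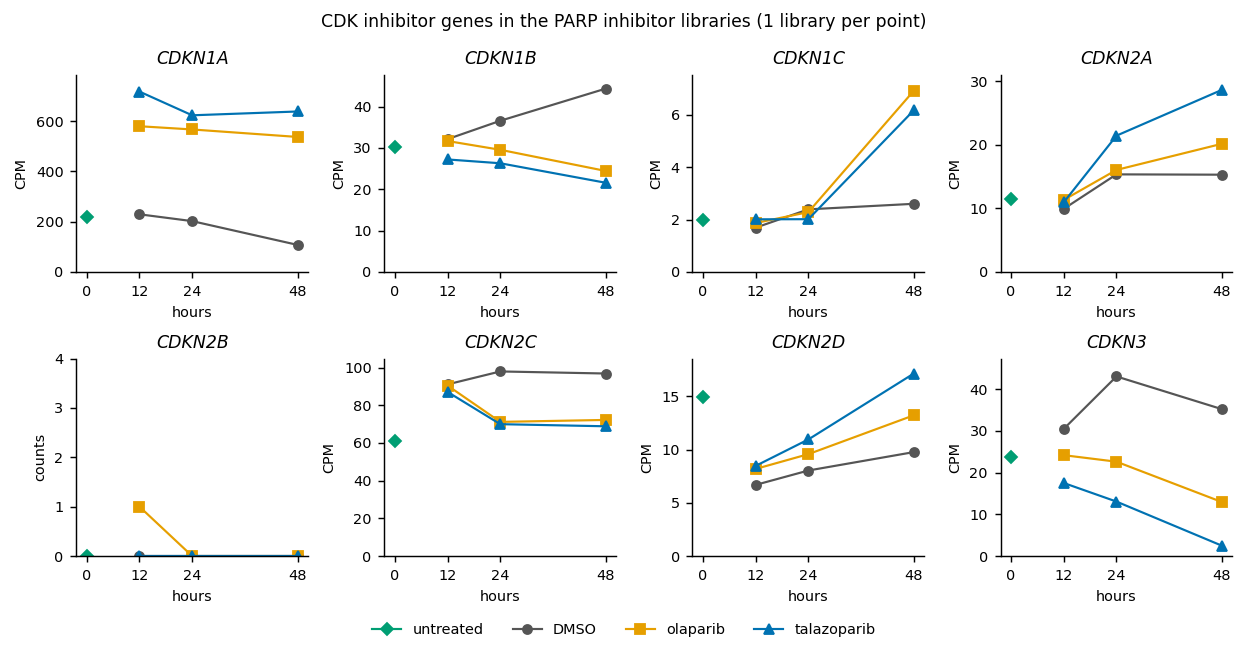
CPM of each gene (counts for *CDKN2B*) against hours, with 1 library per point: untreated (diamond), DMSO (circles), olaparib (squares) and talazoparib (triangles). *CDKN1A* runs at 537 to 717 CPM with either inhibitor while DMSO is at 108 CPM by 48 h, *CDKN3* is at 2.48 CPM with talazoparib at 48 h, and *CDKN1C* with the inhibitors lies above DMSO clearly at 48 h only.

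*CDKN3* and *CDKN1B* took the opposite course. *CDKN3* had 30.5, 43.1 and 35.2 CPM in DMSO at 12, 24 and 48 h, against 24.2, 22.6 and 12.95 CPM with olaparib and 17.5, 13.1 and 2.48 CPM with talazoparib. Each inhibitor library lay below each DMSO library, and with talazoparib at 48 h the level was 14.2-fold lower than in DMSO. *CDKN1B* (p27) had 32.1, 36.6 and 44.4 CPM in DMSO, 31.7, 29.6 and 24.4 CPM with olaparib and 27.2, 26.3 and 21.6 CPM with talazoparib. *CDKN2C* (p18), which is abundant in this line, had 91.1, 97.9 and 96.8 CPM in DMSO and 68.8 to 90.4 CPM in the inhibitor libraries. None of the mean effects passed the test: -1.41 ± 0.35 for *CDKN3* (adjusted p = 0.0527), -0.42 ± 0.12 for *CDKN1B* (adjusted p = 0.0651) and -0.25 ± 0.10 for *CDKN2C* (adjusted p = 0.130). DESeq2 called 4 of the 7 genes in the same comparison, namely *CDKN1A*, *CDKN1B* (adjusted p = 0.0266), *CDKN2D* (adjusted p = 0.0209) and *CDKN3* (adjusted p = 0.000526). *CDKN3* passed in 7 of 17 alternatives.

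Judged by levels alone, the 6 inhibitor libraries lay above the 3 DMSO libraries for *CDKN1A* and below them for *CDKN1B*, *CDKN2C* and *CDKN3*. This arrangement held for 6.67% (above) and 7.46% (below) of all genes tested. With TMM-scaled library totals *CDKN2C* overlapped, since olaparib at 12 h differed from DMSO by only -0.01 (log2). Untreated cells at 0 h had 30.3 CPM of *CDKN1B*, 61.2 CPM of *CDKN2C* and 23.7 CPM of *CDKN3*, each below every DMSO library. For *CDKN2C* this was also below every inhibitor library, and for *CDKN1B* and *CDKN3* it lay within the inhibitor range. These 3 genes were thus lower than in DMSO but not all lower than in untreated cells.

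*CDKN1C*, *CDKN2A* and *CDKN2D* had mean effects of 0.50 ± 0.29, 0.44 ± 0.17 and 0.51 ± 0.14 (adjusted p = 0.257, 0.105 and 0.0616), which did not pass. *CDKN1C* (p57) had 1.69 and 2.39 CPM in DMSO at 12 and 24 h and 1.87 to 2.29 CPM in the inhibitor libraries of these hours, and at 48 h it stood at 2.61 CPM in DMSO, 6.93 CPM with olaparib and 6.18 CPM with talazoparib. *CDKN2D* (p19) had 6.68, 8.04 and 9.76 CPM in DMSO, 8.18, 9.57 and 13.2 CPM with olaparib and 8.47, 10.95 and 17.1 CPM with talazoparib. It was the member that differed most between untreated cells and DMSO at 12 h, being higher in untreated cells by 1.16 (log2, counting interval 1.00 to 1.32). Untreated cells had 14.9 CPM of *CDKN2D*, above every DMSO library and every inhibitor library other than talazoparib at 48 h. *CDKN2A* (p16 and ARF, not separated in counts per gene) had 9.93, 15.4 and 15.3 CPM in DMSO, 11.3, 16.1 and 20.2 CPM with olaparib and 10.97, 21.4 and 28.6 CPM with talazoparib.

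The change of the inhibitor effect with time was fitted as a slope per doubling of hours. It was positive for *CDKN1A* (0.58 ± 0.14, adjusted p = 0.000244) and *CDKN1C* (0.70 ± 0.19, adjusted p = 0.00296) and negative for *CDKN3* (-0.91 ± 0.14, adjusted p = 2.17e-09), against 10% of all genes called higher and 9.82% lower. The spread in this fit was in effect shared over all genes, so small p-values do not rest on the scatter of each gene. The other 4 genes tested did not pass, with *CDKN2A* at 0.35 (adjusted p = 0.0618) and *CDKN1B* at -0.30 (adjusted p = 0.0963). For *CDKN1A* the slope came with the low DMSO level at 48 h, and without that library it was 0.05 (adjusted p = 0.998), while *CDKN1C* turned to -0.36 and *CDKN3* stood at -0.77 (adjusted p = 0.119). Without talazoparib at 48 h *CDKN1A* was at 0.41 (adjusted p = 0.102). Treating both inhibitors as 1 group left none of the slopes past the threshold, *CDKN3* included (-0.72, adjusted p = 0.305).

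**Figure D3:**
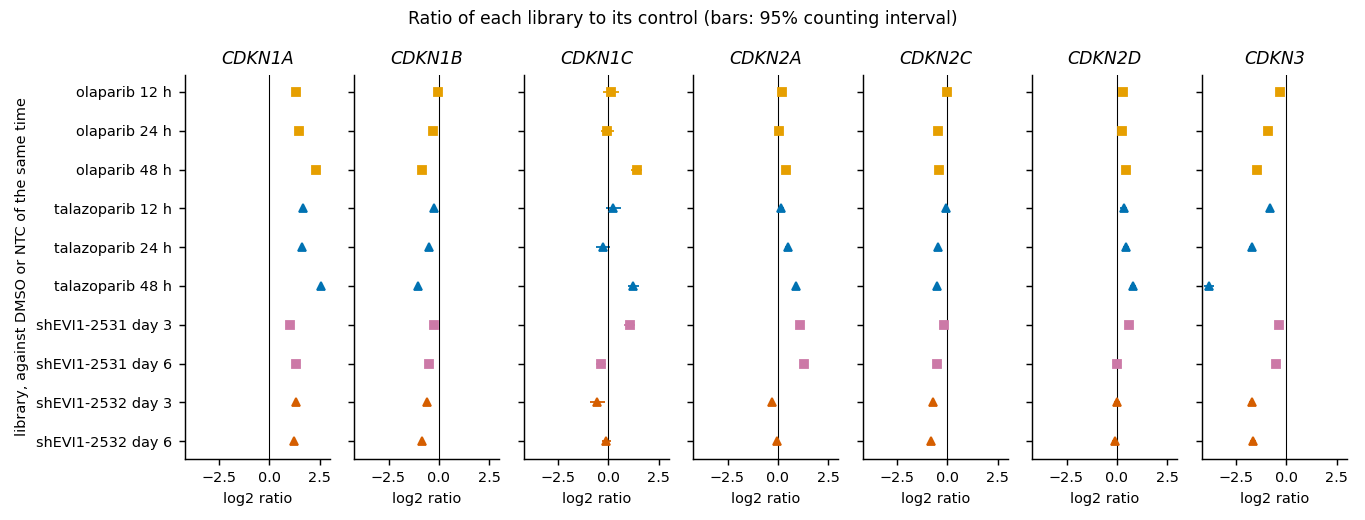
Log2 ratio of each library to DMSO of the same hour or NTC of the same day for the 7 genes with counts, with bars for the 95% counting interval, which are often smaller than the symbol. *CDKN1A* lies between 1.02 and 2.57 in all 10 comparisons, and *CDKN1B*, *CDKN2C* and *CDKN3* lie below 0 in all 10 on this scale of library totals. For *CDKN2C* with olaparib at 12 h, at -0.01, the sign turns under TMM scaling.

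The single-library log2 ratios are scaled to library totals, whereas the fits use TMM, which raised the ratios by 0.17 to 0.35 (log2) in 6 of the 10 comparisons, all of them at 48 h or in the knockdown. Both inhibitors share the DMSO libraries and both shRNAs share the NTC libraries.

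The second comparison asked whether knockdown of *EVI1* moved the same genes. *MECOM* itself had 42.4 and 44.2 CPM with NTC on days 3 and 6, 12.3 and 18.5 CPM with shEVI1-2531 and 4.51 and 4.03 CPM with shEVI1-2532, which matches the labels. *CDKN1A* had 216 and 193 CPM with NTC, 437 and 485 CPM with shEVI1-2531 and 535 and 456 CPM with shEVI1-2532. All 4 shEVI1 libraries lay above both NTC libraries, as for 8.4% of all genes (14.8% with TMM-scaled library totals). The fitted effect was 1.34 ± 0.13 for shEVI1-2531 (adjusted p = 6.17e-05) and 1.58 ± 0.13 for shEVI1-2532 (adjusted p = 3.57e-06), and it passed in all 12 alternatives for each shRNA. The difference between the shRNAs was 0.23 ± 0.13 and did not pass (adjusted p = 0.228).

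*CDKN2A* separated the shRNAs. It had 18.5 and 20.0 CPM with NTC on days 3 and 6, 39.2 and 49.4 CPM with shEVI1-2531, and 15.2 and 19.6 CPM with shEVI1-2532. Only shEVI1-2531, which left more *MECOM* RNA, had higher levels than NTC. The effect of this shRNA was 1.36 ± 0.17 (adjusted p = 0.000224), that of shEVI1-2532 was 0.14 ± 0.16 (adjusted p = 0.519) and -0.16 with library totals, and the difference of shEVI1-2532 minus shEVI1-2531 was -1.22 ± 0.17 (adjusted p = 0.000338). The neighbour *MTAP* had 24.8 and 34.6 CPM with shEVI1-2531 against 33.1 and 33.2 CPM with NTC.

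*CDKN3* was likewise lower with shEVI1-2532 than with shEVI1-2531, but here the effect against NTC passed for shEVI1-2532 only. *CDKN3* had 30.3 and 18.6 CPM with NTC, 23.3 and 13.2 CPM with shEVI1-2531 and 9.13 and 5.94 CPM with shEVI1-2532. The effect was -0.27 ± 0.17 for shEVI1-2531 (adjusted p = 0.304) and -1.39 ± 0.17 for shEVI1-2532 (adjusted p = 5.91e-05), with a difference of -1.12 ± 0.17 (adjusted p = 0.000764). *CDKN2C* was lower with shEVI1-2532 as well (-0.45 ± 0.14, adjusted p = 0.0235), from 85.9 and 98.2 CPM with NTC to 52.8 and 56.7 CPM. That call was lost in 4 of 12 alternatives. With shEVI1-2531 *CDKN2C* had 76.0 and 68.7 CPM, and this effect did not pass (-0.17, adjusted p = 0.438). The difference between the shRNAs did not pass for *CDKN2C* either (-0.27, adjusted p = 0.185).

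**Figure D4:**
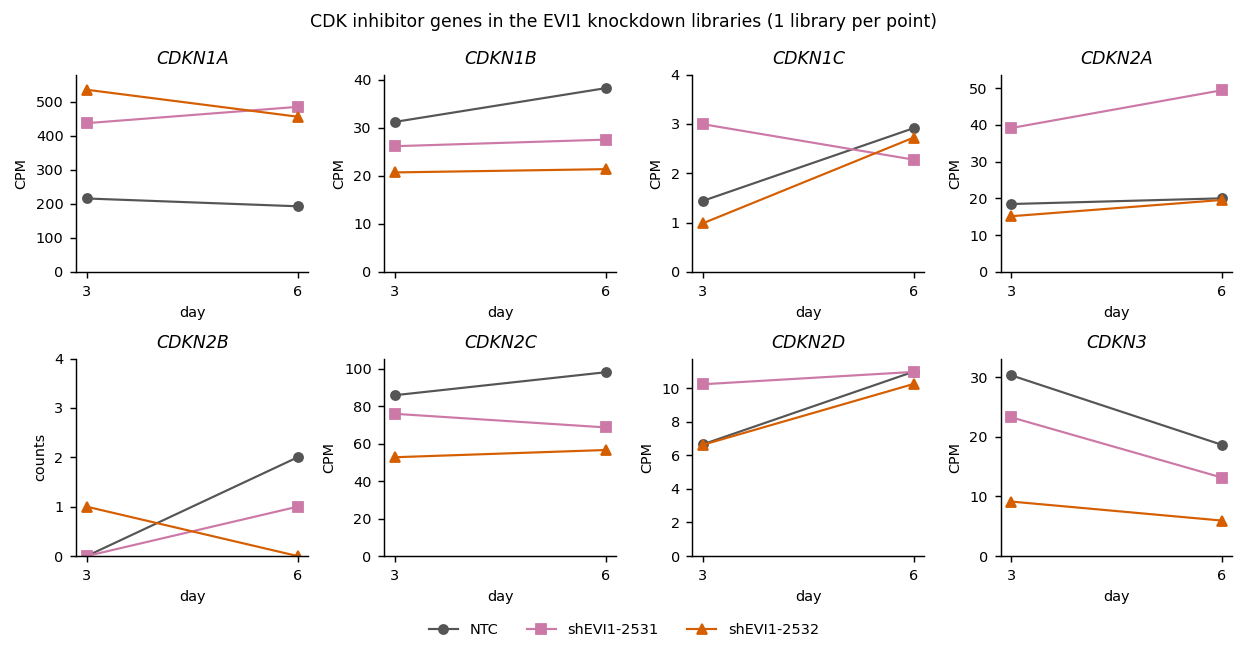
CPM of each gene (counts for *CDKN2B*) on day 3 and day 6, with 1 library per point: NTC (circles), shEVI1-2531 (squares) and shEVI1-2532 (triangles). *CDKN1A* is at 437 to 535 CPM with both shRNAs against 193 to 216 CPM with NTC, and *CDKN2A* is at 39.2 and 49.4 CPM with shEVI1-2531 alone.

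In total, 2 of 7 genes were called higher and 0 lower with shEVI1-2531, where 9.49% and 7.9% of the 18606 genes tested were called, and 1 was higher and 2 lower with shEVI1-2532, where 21.2% and 19.9% were called. The difference between the shRNAs was called lower for 2 genes and higher for 0, beside 12% and 12.2% of all genes. For *CDKN1B* the levels were 31.2 and 38.2 CPM with NTC, 26.1 and 27.5 CPM with shEVI1-2531 and 20.7 and 21.4 CPM with shEVI1-2532. The groups did not overlap, as for 23.2% of all genes below NTC (15.4% with TMM-scaled library totals). However, neither effect passed (-0.20, adjusted p = 0.440, and -0.41, adjusted p = 0.0544). The latter passed in 6 of 12 alternatives, DESeq2 among them. *CDKN1C* (0.987 to 2.99 CPM) and *CDKN2D* (6.63 to 10.99 CPM) showed no call with either shRNA.

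The kinases and cyclins that these proteins bind were examined as a fixed list of 13 genes. Their mean PARPi effect was called for *CCNB1* only, the mitotic cyclin B1 (-1.52, adjusted p = 0.0397), but their slopes were called lower for 8 and higher for 3. The mitotic kinase *CDK1* (-0.99, adjusted p = 4.33e-12) and cyclin *CCNA2* (-1.09, adjusted p = 2.28e-14) were among those lower, and *CCND1* and *CCND2*, D-type cyclins that activate CDK4 and CDK6, were among those higher (0.57 and 0.39). With shEVI1-2532, 6 were lower and 2 higher, with *CDK1* at -1.91 and *CCNA1*, a cyclin A of germ cells and some leukemias, at 2.35. With shEVI1-2531, 4 were lower and 4 higher. These counts changed with single libraries: the PARPi mean had between 0 and 11 calls when a library or hour was left out (0 without any 1 of the 24 h libraries, without olaparib at 12 h or without olaparib at 48 h, and 11 without DMSO at 12 h) and 8 by DESeq2, the slope had 1 to 12 (1 without DMSO at 48 h), and shEVI1-2531 had 1 to 7 (1 without NTC or shEVI1-2531 on day 3). For shEVI1-2532 there were 8 or 9. Over all genes, 1.01% were called lower and 3.16% higher in the PARPi mean, and 9.82% and 10% in the slope. The shares lower and higher were 19.9% and 21.2% with shEVI1-2532 and 7.9% and 9.49% with shEVI1-2531.

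**Figure D5:**
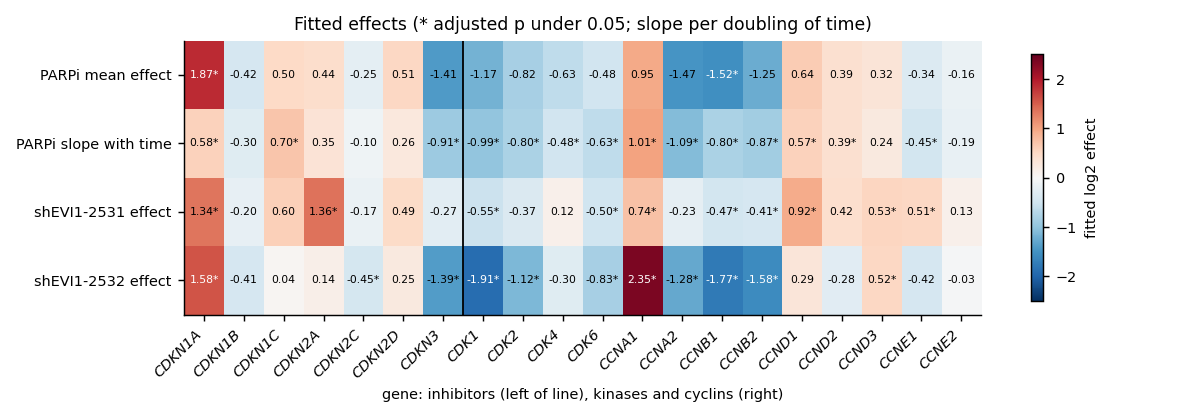
Fitted log2 effects of 7 CDK inhibitor genes (left of the line) and 13 kinases and cyclins (right), for the PARPi mean, the PARPi slope per doubling of hours, and each shRNA against NTC; stars mark an adjusted p under 0.05. *CDKN3* shares the blue of *CDK1*, *CCNA2*, *CCNB1* and *CCNB2* with shEVI1-2532, while *CDKN1A* is red in all 4 rows.

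Among 12 p53 target genes other than *CDKN1A*, all 12 were higher with PARPi, 9 with shEVI1-2531 and 10 with shEVI1-2532. None was lower in these comparisons, and the shares called higher over all genes were 3.16%, 9.49% and 21.2%. The list was chosen with earlier results of these data known, so its counts beside these shares are a description and not an independent test. The stress cytokine *GDF15* stood at 4.15 in the PARPi mean (adjusted p = 0.00209) and *MDM2*, the ubiquitin ligase that degrades p53, at 1.35 (adjusted p = 0.00549). The PARPi count ranged from 0 to 12 when a library or hour was left out: 4 without DMSO, 2 without olaparib and 2 without talazoparib at 24 h, 0 without the 24 h libraries, 5 without olaparib at 12 h and 3 without olaparib at 48 h. The counts of the shRNAs ranged from 8 to 11 and from 9 to 10. The median of the list was 1.09, 0.74 and 1.17. Their slopes were called for 2 of 12 genes, *ZMAT3* higher and *BBC3* lower, beside 10% and 9.82% of all genes. Of 14 regulators of CDK inhibitors, 1 was called higher and 1 lower in the PARPi mean, 1 higher and 0 lower with shEVI1-2531, and 3 higher and 5 lower with shEVI1-2532. Over all genes, 3.16% and 1.01% were called higher and lower in the PARPi mean, 9.49% and 7.9% with shEVI1-2531, and 21.2% and 19.9% with shEVI1-2532. The calls higher with shEVI1-2532 lay near that share. The regulator called higher in the PARPi mean was *MDM2*, which is also among the 12 p53 targets. PARPi calls of the regulators numbered 0 to 9 when a library or hour was left out (0 without DMSO or talazoparib at 24 h, 9 without DMSO at 12 h). Among these genes, *E2F1* (-1.30) and the p27-degradation factors *SKP2* (-0.63) and *CKS1B* (-1.45) were lower with shEVI1-2532. The Polycomb genes of this list, whose products repress *CDKN2A*, did not move together. *CBX7* was higher with shEVI1-2532 (2.46, adjusted p = 2.14e-05) and higher than with shEVI1-2531 (difference 1.72, adjusted p = 0.000681). By contrast, *EZH2* was lower with shEVI1-2532 (-0.97, adjusted p = 0.000748), and *BMI1* was not called (-0.36, adjusted p = 0.224). Neither *EZH2* nor *BMI1* passed in the difference between the shRNAs (adjusted p = 0.0556 and 0.919). The part of these genes in the *CDKN2A* levels was not tested.

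Markers of cell type and of proliferation were examined in the same comparisons. The summed level of 4 monocytic markers was 236 to 409 CPM in DMSO and 243 to 3585 CPM in the inhibitor libraries, and 186 to 208 CPM with NTC, 1054 to 1079 CPM with shEVI1-2531 and 3938 to 5277 CPM with shEVI1-2532. This sum was mostly *LYZ*, at up to 3496 CPM in the PARPi libraries, where *CD68* had at most 0.238 CPM. In the PARPi mean edgeR called *FCN1* higher (1.37, adjusted p = 0.0445) but not *CD14*, *LYZ* or *CD68*, while the slopes of *CD14*, *LYZ* and *FCN1* were called higher. The summed level of the proliferation markers *MKI67* and *TOP2A* was 688 to 757 CPM in DMSO and 47.2 to 724 CPM with the inhibitors, and 409 to 431 CPM with NTC, 166 to 199 CPM with shEVI1-2531 and 95.5 to 107 CPM with shEVI1-2532. Neither passed in the PARPi mean by edgeR (adjusted p = 0.0823 for *MKI67* and 0.0954 for *TOP2A*), while both slopes were called lower (-1.16 and -1.23). The summed level of the immature markers *CD34*, *KIT* and *MECOM* was 441 to 584 CPM in DMSO, 122 to 612 CPM with the inhibitors, 381 to 832 CPM with NTC, 133 to 146 CPM with shEVI1-2531 and 16.2 to 18.6 CPM with shEVI1-2532. By edgeR, *CD34*, *KIT* and *MECOM* did not pass in the PARPi mean (adjusted p = 0.122, 0.403 and 0.0972). Their slopes were called lower (-0.83, -0.80 and -0.94). *MECOM* is the gene that the shRNAs target. *KIT* went against the sum with shEVI1-2531, where edgeR called it higher (0.71, adjusted p = 0.0321), and was lower with shEVI1-2532 (-1.30, adjusted p = 0.000383). Granulocytic markers summed to 1444 to 2648 CPM in DMSO and 663 to 1600 CPM with the inhibitors, and to 3386 to 3641 CPM with NTC, 3241 to 5226 CPM with shEVI1-2531 and 2353 to 3744 CPM with shEVI1-2532. The members of this list differed: *ELANE* was lower with shEVI1-2531 (-2.81, adjusted p = 1.36e-05) and higher with shEVI1-2532 (3.05, adjusted p = 8.46e-07), *AZU1* was higher with shEVI1-2532 (2.71, adjusted p = 6.85e-07), and none of the 3 passed in the PARPi mean (*MPO* -0.76, *ELANE* -0.28, *AZU1* 0.31). Of 15 chromosomal neighbours of the inhibitor genes, 13 were tested, and 0 were called in the PARPi mean, 1 lower with shEVI1-2531 and 4 higher and 4 lower with shEVI1-2532. Over all genes, 3.16% and 1.01% were called higher and lower in the PARPi mean, 9.49% and 7.9% with shEVI1-2531, and 21.2% and 19.9% with shEVI1-2532. The part of the cell type and proliferation markers in the changes of the CDK inhibitor genes was not tested.

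Over all 16 libraries, centred within each experiment, the genes whose pattern was most like *CDKN1A* were *GADD45A* and *TP53I3* (both r = 0.95) and *SRC* (r = 0.93). *CDKN3* was most like *DEPDC1B*, the mitotic cyclin gene *CCNB2* and *DUT* (all r = 0.99). *CDKN1C* was most like *DNASE2* (r = 0.94), *CDKN2C* most like *C12orf65* and *CDKN2D* most like *SLC2A3* (both r = 0.92), *CDKN2A* most like *STX3* (r = 0.93) and *CDKN1B* most like *MXD3* (r = 0.94). Within the family *CDKN1A* and *CDKN1B* had r = -0.82, and *CDKN1B* had r = 0.81 with *CDKN2C* and 0.79 with *CDKN3*. These correlations share libraries, controls and scaling and are given as a description.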

How the data were processed

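RNA-Seq of MUTZ-3 was analysed in 16 libraries made with a TruSeq Stranded mRNA kit. The authors deposited raw counts per gene and TPM, and their processing notes name STAR, Picard and featureCounts with GRCh38 (hg38), without versions. The deposited TPM were computed over the whole gene span, introns included, and were used only to check the counts. The strand setting of the counting is not given in the sources used here. Groups came from the labels.

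CPM used the library total. Exon lengths were those of GENCODE v29. Single-library ratios carry exact 95% binomial intervals, and floors are 3 counts of the total, and both cover counting error only. Genes that reached 10 counts in 3 or more of 9 PARPi or 2 or more of 6 knockdown libraries were fitted with edgeR 4.0.16 (TMM, quasi-likelihood, R 4.3.3), with p adjusted after Benjamini-Hochberg over all genes and a threshold of 0.05. PARPi models held the hour as a factor and each inhibitor (4 residual degrees of freedom), then a slope on log2 hours (2). The knockdown model held the day and each shRNA (2). Residual spread is between hours, days and treatments, since no condition was replicated. In the slope fit this spread was in effect shared over all genes. Its p-values are those of a normal distribution of effect over SE, and do not rest on the 2 residual degrees of freedom of each gene. DESeq2 1.42.0, other scalings, no filter, other models and leaving out each library were tried as alternatives.

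All 8 genes were named by rule, with fixed lists of kinases and cyclins, regulators, p53 targets, neighbours and markers. Similar genes were the 3 with the highest Pearson r of log2 CPM (prior count 2) among genes with a mean log2 CPM of at least 3. The genes and lists were chosen with earlier results of these data known. Overlapping genes and the TMM-scaled overlap of groups were added after seeing the data. The markers of other lineages are not reported here.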

Additional observations from a re-analysis of the deposited data

Results flagged for a closer look

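In the PARPi time course, the inhibitor effect differed with the hour, by a test of the slope per doubling of hours, for *CDKN1A* (0.58, adjusted p = 0.000244), *CDKN1C* (0.70, adjusted p = 0.00296) and *CDKN3* (-0.91, adjusted p = 2.17e-09), all by edgeR. For *CDKN1A* the level in the inhibitor libraries ranged only from 537 to 717 CPM, whereas DMSO had 229 CPM at 12 h and 108 CPM at 48 h. In the knockdown, the effects of the shRNAs differed (shEVI1-2532 minus shEVI1-2531) for *CDKN2A* (-1.22, adjusted p = 0.000338) and *CDKN3* (-1.12, adjusted p = 0.000764). The deposited files of shEVI1-2531 carry another shRNA number in their names, and the groups here follow the labels.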

How the results depend on the processing

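With no replicates, the number of CDK inhibitor genes called depended on the model. In the PARPi mean 1 gene was called, and DESeq2 and no filter on low counts each called 4, while leaving out single libraries or hours gave 0 to 4. Over all genes the call count was 718, against 3474 by DESeq2, 3728 with no filter, 468 with library totals only and 16 with no time point in the model, with 0 to 4721 when libraries or hours were left out. In the slope 3 genes were called, 0 with both inhibitors as 1 group, and 0 to 5 when libraries were left out, and the 0 came without DMSO at 48 h. For shEVI1-2531 the count was 2, against 1 with both shRNAs as 1 group and 2 to 4 when libraries were left out, and for shEVI1-2532 it was 3, against 1 and 2 to 4. For the difference it was 2, against 1 with no day in the model and 2 to 3.

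*CDKN1A* kept its direction and passed in 12 of 17 alternatives for the PARPi mean and 11 of 14 for the slope, *CDKN3* in 12 of 14 for the slope, and *CDKN2A* in 11 of 12 for shEVI1-2531 (0.88, adjusted p = 0.289, with both shRNAs as 1 group). *CDKN1C* lost its slope in DESeq2 and without either inhibitor library at 48 h. Signs turned only for values that had not passed or for *CDKN1C*. The slope of *CDKN2C* was 0.24 without DMSO at 12 h and 0.0043 without olaparib at 12 h, and that of *CDKN1C* -0.36 without DMSO at 48 h. For shEVI1-2532 with library totals only, *CDKN1C* was at -0.27, *CDKN2A* at -0.16 and *CDKN2D* at -0.056. Without single libraries, *CDKN1C* reached -0.21, -0.0058, -0.023 and -0.69 for shEVI1-2532, -0.32 for shEVI1-2531, and 0.31 and 0.057 for the difference, *CDKN2D* 0.080 for the difference, and *CDKN2C* 0.010 for shEVI1-2531. Over all omissions of a library or hour, the slope of *CDKN1C* ran up to 1.70 and that of *CDKN2C* down to -0.45, *CDKN1C* reached 1.37 (shEVI1-2531), 0.57 (shEVI1-2532) and -1.40 (difference), *CDKN2C* -0.34 (shEVI1-2531) and *CDKN2D* -0.57 (difference). The causes were not tested. TMM moved single-library ratios by -0.02 to 0.35 (log2), which took 38 of 70 outside their counting interval.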
